A study of Mus musculus with 6 samples.

Results

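Endothelial genes, the transcripts that mark the cells lining blood and lymph vessels, were examined in the growth plates of mice with a conditional Lkb1 mutation. The set holds 42 genes listed by name as genes of endothelium, and 41 of them had a probe set annotated to that gene alone. All 41 passed the filter on dim probe sets and were tested among 17020 genes. Selp, which encodes P-selectin, was not analysed here. The samples were 3 conditional Lkb1 mutant and 3 control preparations of growth plate cartilage cells from femurs and tibiae, all taken at postnatal day 30 from mice of a mixed FVB, 129S6 and C57CL/6 background, each on its own Affymetrix array. The kinase LKB1, an activator of AMPK, is encoded by the gene now named Stk11. The alleles, the Cre driver and the genotype of the controls are not given in the sources used here, nor whether a preparation came from 1 animal or several. The replicates are called biological, but nothing ties them to separate animals, so a p-value here reflects only how far these preparations varied.

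Endothelial cells are held together by a cadherin and immunoglobulin-type adhesion molecules, and they sense VEGF, angiopoietin, BMP and apelin ligands through receptors that few other cells carry. The cartilage of the growth plate has no vessels of its own. Hypertrophic chondrocytes at its base release VEGF, and capillaries rich in endomucin and PECAM1 grow in from the bone side, while further vessels lie in the surrounding perichondrium and in the marrow, whose wide sinusoids differ from arteries in the genes they use. Several of the genes are shared with blood cells. Platelets and their precursors also express von Willebrand factor and Pecam1, macrophages also express Stab1 and Lyve1, and Pdpn is made by fibroblasts and osteocytes as well as by lymphatic endothelium.

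Values are log2(intensity + 1), a gene was called at a limma adjusted p below 0.05 over all genes tested, and a difference is mutant minus control with its standard error (SE). The array medians lay between 82.4 and 90.5 in intensity, and precision is limited by having 3 arrays per group. Stk11 had 7.39, 7.51 and 7.52 in mutant replicates 1, 2 and 3, against 8.68, 9.08 and 9.67 in control replicates 1, 2 and 3. All mutant arrays were thus below all control arrays for the targeted gene (difference -1.67, adjusted p = 0.00387), although where its probes lie relative to the deleted part was not analysed here. With the marrow covariate described below, the Stk11 difference was 0.40 and not called (adjusted p = 0.594). As to the labelled cell type, all 11 chondrocyte markers were above background on every array and their mean was 11.83 to 11.90 in mutants and 11.69 to 11.89 in controls. Of these 11, 1 was called higher and none lower, with differences from -0.27 to 1.28 and a median of -0.03. The 1035 olfactory receptor probe sets gave the background, whose 95% point was 6.49 to 6.73 in mutants and 6.40 to 6.65 in controls. Marrow transcripts set the control arrays apart from the mutants and from each other. For 25 marrow markers (erythroid, neutrophil and B lymphoid genes) the mean was 6.32, 6.29 and 6.06 in the mutants, against 8.59, 9.25 and 9.95 in control replicates 1, 2 and 3. Of the 25, 21 were called lower, 5 were above background in all mutants and 23 in all controls, and their summed intensity was 2751 to 4814 in mutants and 15924 to 36920 in controls. The part of marrow content in the differences below was not tested beyond the fits described with them.

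To show the regulatory sequence in front of genes that moved together, the RefSeq promoter windows (assembly GRCm38.p6, 250 bases before to 50 after the annotated start, given in the direction of the gene) were searched for short motifs of factor families that act in endothelium. Of 8 motifs searched, 4 are marked, namely CAGGAAG and CCGGAAG for ETS factors, AACAAT for SOX factors and GATAAG for GATA factors, each on both strands, and this choice was made after the counts were seen. Windows were present for 26 of the 42 genes, 31 windows in all. CAGGAAG was in 10 of these 31 windows, or 32.3%, against 13.3% of the 32851 windows of all genes, and in those of 9 genes (Cd34, Egfl7, Emcn, Erg, Notch4, Rasip1, Robo4, Sele and Stab1). CCGGAAG was in 0 of the 31, against 8.86% of all windows, AACAAT in 9.68% against 10.7%, and GATAAG in 9.68% against 7.44%. The forms not marked, of which the first 3 overlap CAGGAAG, were AGGAAG in 51.6% of the 31 windows against 35.4% of all, ACAGGAA in 25.8% against 8.67%, GGAA in 96.8% against 96%, and ACAATG in 6.45% against 12.6%. The 4 windows shown belong to the risen genes with the largest differences among those that have a window: Emcn at chr3:137340828-137341127 on the plus strand, Stab1 at chr14:31168592-31168891, Pdpn at chr4:143299515-143299814 and Flt1 at chr5:147725962-147726261, the last 3 on the minus strand. Capitals mark each match to any of the 4 motifs on either strand, and no matches overlapped.
Emcn: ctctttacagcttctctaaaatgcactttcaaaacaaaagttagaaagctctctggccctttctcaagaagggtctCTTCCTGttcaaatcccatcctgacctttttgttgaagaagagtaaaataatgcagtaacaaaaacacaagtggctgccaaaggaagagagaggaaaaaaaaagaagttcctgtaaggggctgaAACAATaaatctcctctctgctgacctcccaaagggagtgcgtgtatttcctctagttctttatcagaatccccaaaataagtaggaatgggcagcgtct
Stab1: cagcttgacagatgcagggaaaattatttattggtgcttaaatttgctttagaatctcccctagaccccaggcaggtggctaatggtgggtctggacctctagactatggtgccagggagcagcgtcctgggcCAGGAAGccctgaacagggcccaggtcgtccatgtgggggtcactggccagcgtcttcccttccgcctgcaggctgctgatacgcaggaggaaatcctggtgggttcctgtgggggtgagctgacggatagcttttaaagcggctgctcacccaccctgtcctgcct
Pdpn: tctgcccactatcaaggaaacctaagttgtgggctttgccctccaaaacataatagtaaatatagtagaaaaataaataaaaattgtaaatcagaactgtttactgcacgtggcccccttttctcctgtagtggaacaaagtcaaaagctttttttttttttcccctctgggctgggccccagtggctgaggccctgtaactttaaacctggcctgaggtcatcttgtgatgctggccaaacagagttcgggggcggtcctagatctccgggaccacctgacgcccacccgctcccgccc
Flt1: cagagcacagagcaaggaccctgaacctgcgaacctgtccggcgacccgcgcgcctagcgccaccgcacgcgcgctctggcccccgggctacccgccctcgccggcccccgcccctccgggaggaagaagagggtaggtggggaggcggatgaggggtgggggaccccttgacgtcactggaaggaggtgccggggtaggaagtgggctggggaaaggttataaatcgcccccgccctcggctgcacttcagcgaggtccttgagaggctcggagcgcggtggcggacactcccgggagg
The Emcn window holds 1 match to CAGGAAG, on the reverse strand, and 1 to AACAAT, and the Stab1 window holds 1 to CAGGAAG. None of the 4 motifs was found in the Pdpn and Flt1 windows. A match or its absence says only whether these letters occur in the window.

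Most endothelial genes were higher in the mutants and none was called lower. Of the 41 genes tested, 22 rose, or 53.7%, where 7.84% of all genes tested were called higher and 14.7% in either direction. None was called lower by limma, against 6.82% of all genes, and none was lower at an unadjusted p below 0.05, where 26 were higher. The median difference of the 41 genes was 0.46, and that of all 17020 genes was 0.03. Every mutant array lay above every control array for 28 of the 41 genes, or 68.3%, against 20.0% of all genes, and the opposite held for 0 of the 41, against 16.7%. The summed intensity of the 41 genes was 7102, 7792 and 7519 in mutant replicates 1, 2 and 3, against 5296, 5010 and 5094 in control replicates 1, 2 and 3. In tissue samples of this kind, more endothelial cells and more RNA of these genes per cell cannot be told apart.

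The count of risen genes varied with the arrays used. Leaving out control replicate 1, 2 or 3 gave 20, 13 and 22 risen genes, in fits that called 1642, 730 and 1313 of all genes higher. Leaving out mutant replicate 1, 2 or 3 gave 15, 10 and 10, with 653, 663 and 512 of all genes higher. Without control replicates 2 and 3, which carry the most marrow transcripts, the median difference was 0.35, against 0.05 for all genes. In that fit the single control is assumed to vary like the mutants. For all 22 risen genes every mutant array lay above every control array, so leaving arrays out could not change their sign. When the mean of the marrow markers entered the fit as a covariate, 17 of the 22 kept their sign. The median of the endothelial genes was then 0.47, against 0.17 for all genes. In that fit 0 endothelial genes were called, with 28 of all genes called higher and 10 lower. The risen genes that changed sign in it were Cd34, Podxl, Efnb2, Ephb4 and Pdpn. That mean separates the groups completely. The mean of all 41 genes was 7.15, 7.30 and 7.25 in mutant replicates 1, 2 and 3, against 6.76, 6.71 and 6.77 in control replicates 1, 2 and 3. That of the 22 risen genes was 7.45, 7.65 and 7.62 in the mutants, against 6.85, 6.78 and 6.76 in the controls. These 22 were chosen by their call on the same arrays, so the gap in their mean follows from the choice. In 12 of the 22 genes at least 1 control was not above background.

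**Figure D1:**
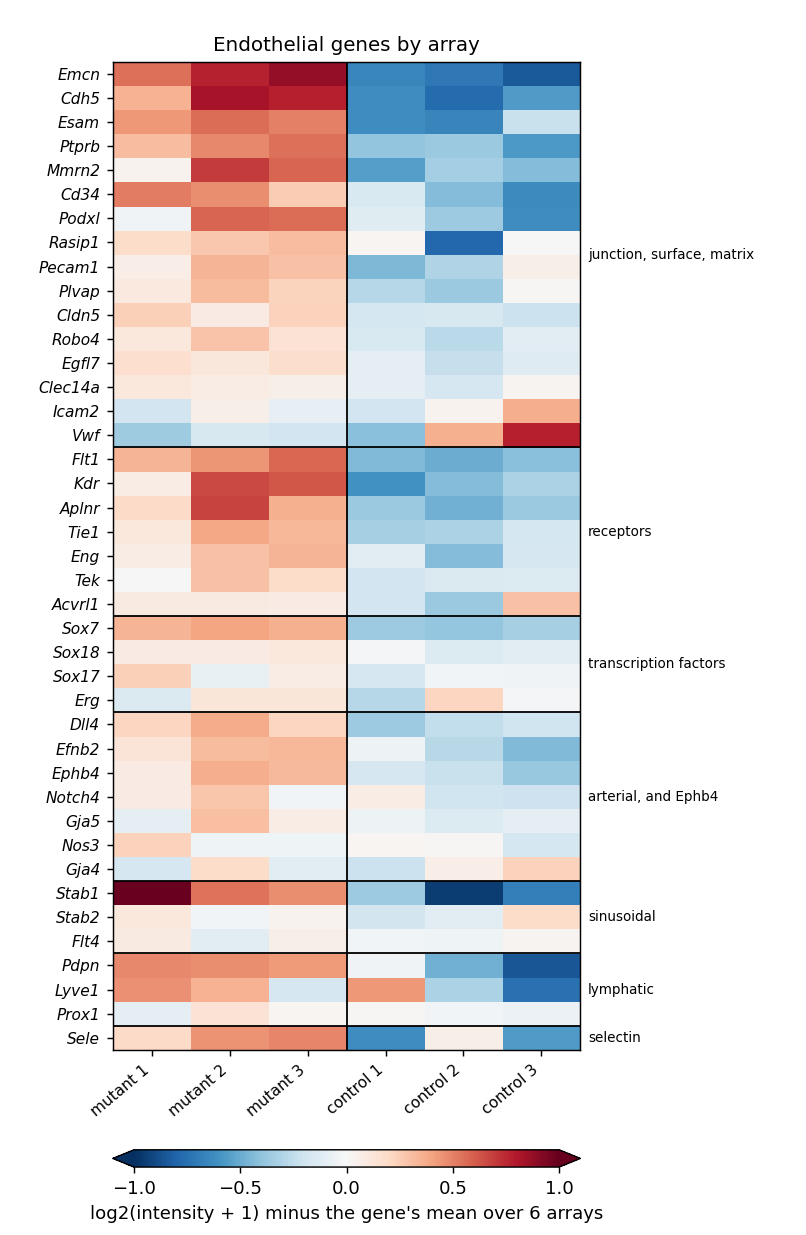
Each row is an endothelial gene and each column an array, with mutants left of controls; colour is log2(intensity + 1) minus the gene's mean over the 6 arrays, and black lines part the gene groups. In 28 of the 41 rows every mutant lies above every control, while Vwf, Icam2, Gja4, Acvrl1 and Stab2 are highest in control replicate 3.

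Of the 16 genes for junction, surface and matrix proteins found in most endothelium, 10 rose and none fell, with a median difference of 0.48. Emcn, which encodes the sialomucin endomucin of capillary and venous endothelium, had the largest difference of the whole set. It measured 8.27, 8.49 and 8.60 in the mutants, against 7.07, 7.00 and 6.88 in the controls, and rose by 1.47 (SE 0.11, adjusted p = 0.000485), a fold of 2.77. Cdh5, VE-cadherin, the adhesion molecule of endothelial junctions, had 7.92, 8.39 and 8.35 in mutants and 6.95, 6.80 and 7.01 in controls. It rose by 1.30 (SE 0.14, adjusted p = 0.00172), and for both genes the lowest mutant was well clear of the highest control. Esam, an immunoglobulin-type molecule of endothelial junctions that platelets also carry, was at 7.51, 7.63 and 7.58 in mutants, against 6.45, 6.42 and 6.85 in controls. It rose 2.00-fold (SE 0.13 on the log2 scale, adjusted p = 0.00349), and control replicate 3, the array with the highest platelet markers, had its highest control level.

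Ptprb, the phosphatase VE-PTP that acts on TEK and VE-cadherin, rose by 0.90 (SE 0.10, adjusted p = 0.00218). Its levels of 6.61, 6.78 and 6.85 in mutants were above background, against 5.91, 5.93 and 5.73 in controls, which were at background on all arrays, so it was at least 1.15-fold higher. For this and later bounds, each array of the group wholly at background was taken at its background point. Arrays of the other group were used as measured, at background or not. Cd34, a sialomucin of endothelium and of blood progenitors, measured 9.15, 9.10 and 8.89 in mutants and 8.49, 8.20 and 7.9996 in controls, a rise of 0.82 (adjusted p = 0.01). It lost its call without control replicates 2 and 3 (0.56, adjusted p = 0.0584), and with the marrow covariate its difference was -0.11. Mmrn2, an endothelial matrix protein that binds the CLEC14A and CD93 receptors, rose by 0.88 (adjusted p = 0.0163), with 6.41 in mutant replicate 1 apart from 7.07 and 6.96 in the other mutants, against 5.82, 6.04 and 5.94 in controls. With 2 mutants above background and no control, it was 1.2-fold above the control background. That is not a strict bound, because mutant replicate 1 was itself at background and was used as measured. Podxl, podocalyxin, had a similar spread, at 7.04, 7.66 and 7.63 in mutants and 6.95, 6.71 and 6.45 in controls (difference 0.74, adjusted p = 0.0448), and its difference was -0.51 with the marrow covariate. The smaller rises were in Cldn5, the claudin of endothelial tight junctions, Robo4, an endothelial guidance receptor, and Egfl7, a secreted factor of endothelium. Cldn5 had 7.57, 7.40 and 7.56 in mutants, against 7.15, 7.16 and 7.11 in controls (difference 0.37, adjusted p = 0.0304). Robo4 had 7.51, 7.70 and 7.55 in mutants, against 7.25, 7.14 and 7.30 in controls (difference 0.36, adjusted p = 0.0443). Egfl7 had 6.97, 6.92 and 6.98 in mutants, against 6.70, 6.57 and 6.67 in controls (difference 0.31, adjusted p = 0.0488). In all 3 every mutant array lay above every control array, and the differences were smaller than those of the risen genes above. Of the 10 genes that rose here, 5 lost the call with some array left out. Mmrn2 did so without mutant replicate 2 or 3 (adjusted p up to 0.0741), and Podxl without either of these or control replicate 2 or 3 (up to 0.159). Cldn5 lost it without control replicate 2 or any mutant array (up to 0.137), Egfl7 also without control replicate 3 (up to 0.181), and Robo4 without control replicate 1 or 2 or any mutant array (up to 0.162).

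Pecam1, Plvap, Rasip1 and Clec14a had every mutant above every control but did not pass the test. Pecam1, the platelet and endothelial adhesion molecule, was at 7.61, 7.88 and 7.84 in mutants, against 7.10, 7.25 and 7.61 in controls (difference 0.46, adjusted p = 0.08). Control replicate 3 all but reached the lowest mutant, and without that array Pecam1 was called (adjusted p = 0.0166). Plvap, which forms the diaphragms of fenestrated endothelium, had 7.68, 7.89 and 7.80 in mutants and 7.29, 7.21 and 7.59 in controls. Its difference of 0.43 had an adjusted p of 0.0592, and of 0.0144 without control replicate 3. Rasip1, an effector of RAS-family GTPases in vessel tube formation, differed by 0.51 with an adjusted p of 0.153, and its low control was replicate 2 at 5.79, against 6.59 and 6.57 in the other controls. Clec14a, an endothelial C-type lectin, was at background on all arrays (difference 0.16, interval -0.05 to 0.37).

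Icam2 and Vwf went the other way in value, without a call. Vwf, the clotting glycoprotein von Willebrand factor, measured 6.25, 6.45 and 6.42 in mutants, at background on all of them, against 6.19, 6.96 and 7.39 in control replicates 1, 2 and 3. The difference of -0.47 had a 95% confidence interval from -1.10 to 0.15 and an adjusted p of 0.293. Control replicate 1 lay below every mutant, and the groups overlapped. Without control replicate 1 Vwf was called lower, by -0.80 (adjusted p = 0.00985), and without control replicates 2 and 3 it differed by 0.18 in the other direction. Icam2, an adhesion molecule that leukocytes and platelets share with endothelium, had 6.58, 6.83 and 6.69 in mutants and 6.58, 6.81 and 7.13 in controls, with a difference of -0.14 (interval -0.49 to 0.21) that was 0.01 without control replicate 3 and 0.12 without control replicates 2 and 3. The 7 measured platelet and megakaryocyte markers had a mean of 7.22, 7.17 and 7.06 in mutants, against 7.53, 8.71 and 9.04 in control replicates 1, 2 and 3, with 2 of 7 called lower, 5 not called, 3 above background in all mutants and 7 in all controls. Gp9 and Ppbp, the called markers, were at background in all mutants. Pf4, Tubb1 and Treml1 were above background in all mutants and were not called, with differences of -0.67, -0.27 and 0.05. Itgb3 and Itga2b, also not called, had differences of -1.09 and -0.70. For Itgb3, Itga2b and Tubb1 every mutant lay below every control. The part of platelet RNA in the Vwf and Icam2 values was not tested.

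**Figure D2:**
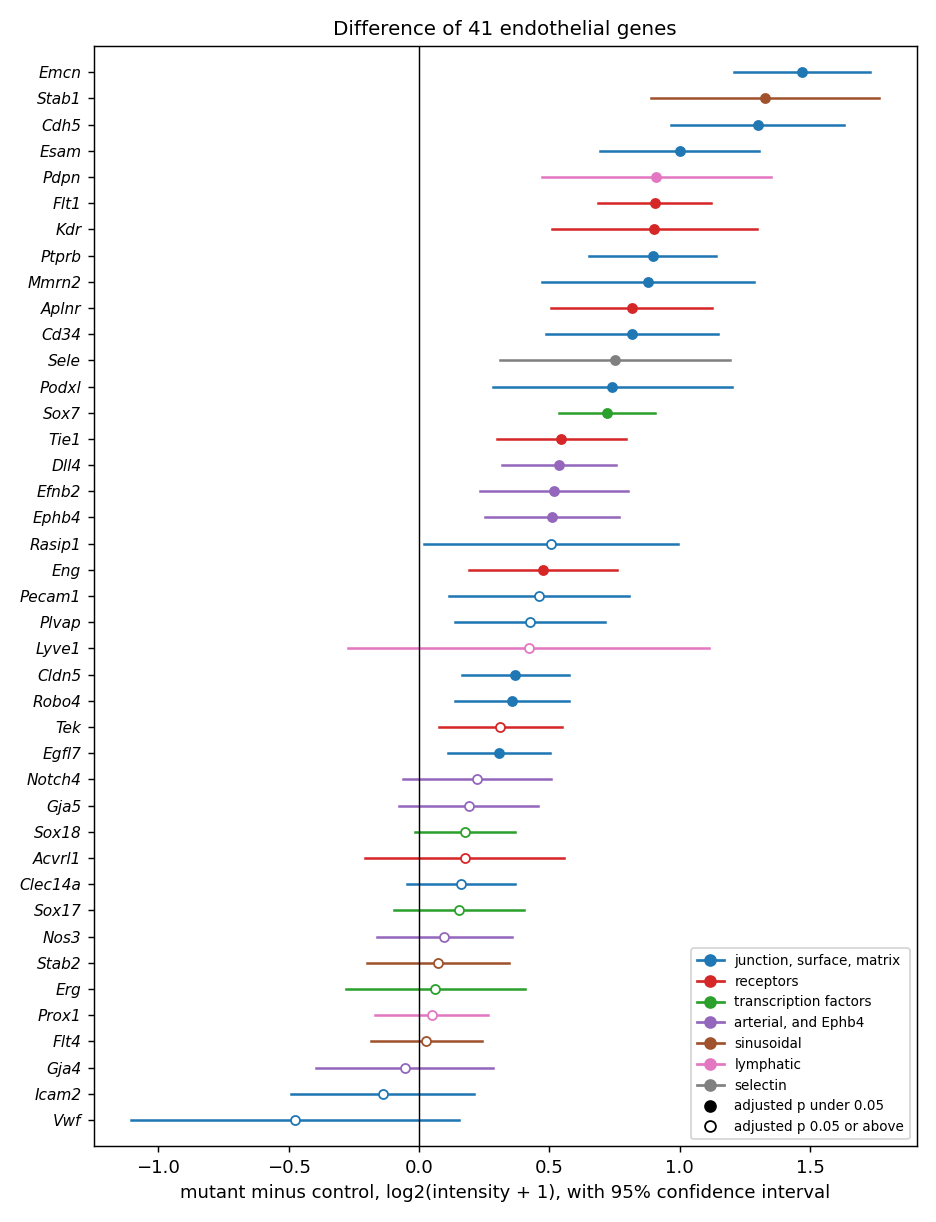
Points are the differences of the 41 endothelial genes, mutant minus control in log2(intensity + 1), with 95% confidence intervals from limma, and colours mark the gene groups. The 22 filled points passed the test and all lie right of 0, from Egfl7 at 0.31 to Emcn at 1.47; Gja4, Icam2 and Vwf are the only points left of 0.

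All 7 receptor genes of most endothelium had a positive difference, and 5 of them rose. Flt1, the VEGF receptor that binds VEGF-A, VEGF-B and placental growth factor, measured 7.24, 7.34 and 7.47 in mutants, against 6.46, 6.40 and 6.48 in controls. It rose by 0.90 (SE 0.09, adjusted p = 0.00137), and 1 of its 3 controls was above background. Kdr, the main signalling receptor for VEGF-A, had 6.07, 6.65 and 6.61 in mutants and 5.39, 5.55 and 5.68 in controls, a rise of 0.90 (SE 0.17, adjusted p = 0.013). Only 1 mutant and no control exceeded the background for Kdr, so no fold is given, and the call was lost without mutant replicate 2 or 3 (adjusted p up to 0.0615) and without control replicates 2 and 3 together (0.0515). Aplnr, the apelin receptor of venous and growing vessels, had 6.45, 6.94 and 6.61 in mutants, against 5.88, 5.78 and 5.89 in controls, and rose by 0.82 (adjusted p = 0.00789). With 2 mutants above background and no control, it was 1.09-fold above the control background. That is not a strict bound, because mutant replicate 1 was at background. Without control replicates 2 and 3 the Aplnr difference was 0.78.

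Of the angiopoietin receptor pair, Tie1 rose. Tie1, the partner of TEK, had 6.46, 6.74 and 6.69 in mutants and 6.02, 6.04 and 6.18 in controls, and rose by 0.55 (adjusted p = 0.0154). With 2 mutants above background and no control, it was 1.06-fold above the control background. That is not a strict bound, because mutant replicate 1 was at background. Its call was lost without control replicate 2 or mutant replicate 2 or 3 (adjusted p up to 0.0775). Tek, the angiopoietin receptor TIE2, was at background on all 6 arrays, and its difference of 0.31 did not pass (adjusted p = 0.0806). Of the BMP and TGF-beta receptor genes, Eng, the co-receptor endoglin, measured 8.15, 8.37 and 8.42 in mutants, against 7.96, 7.64 and 7.91 in controls. It rose by 0.48 (adjusted p = 0.04), and was not called without control replicate 2 or any mutant array (up to 0.155). Acvrl1, the receptor kinase ALK1, had 7.51, 7.52 and 7.51 in mutants, which differ by little, against 7.23, 7.05 and 7.72 in controls, and did not pass (difference 0.18, adjusted p = 0.531). Without control replicate 3, its only control above the mutants, Acvrl1 was called higher by 0.37 (adjusted p = 0.0409).

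Among the transcription factors only Sox7 was called. Sox7, a SOX factor of early and adult endothelium, had 7.04, 7.10 and 7.06 in mutants and 6.34, 6.32 and 6.37 in controls. The rise of 0.72 (SE 0.08, adjusted p = 0.00172) held with each array left out, with an adjusted p of at most 0.0155. All its controls were at background, so it was at least 1.44-fold higher. Sox18, of the same SOX subfamily and known for its part in lymphatic development, had every mutant above every control by a small margin, with 6.98, 6.98 and 7.00 in mutants, against 6.88, 6.76 and 6.79 in controls (difference 0.18, interval -0.01 to 0.37, adjusted p = 0.201). Sox17, the arterial member of that subfamily, was at background on all arrays (difference 0.15, interval -0.09 to 0.40). Erg, an ETS factor of endothelium that cartilage cells also express, had 8.34, 8.61 and 8.61 in mutants, against 8.20, 8.70 and 8.46 in controls. Its groups overlapped, its difference was 0.06 (interval -0.28 to 0.41), and it turned to -0.07 without control replicate 1.

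**Figure D3:**
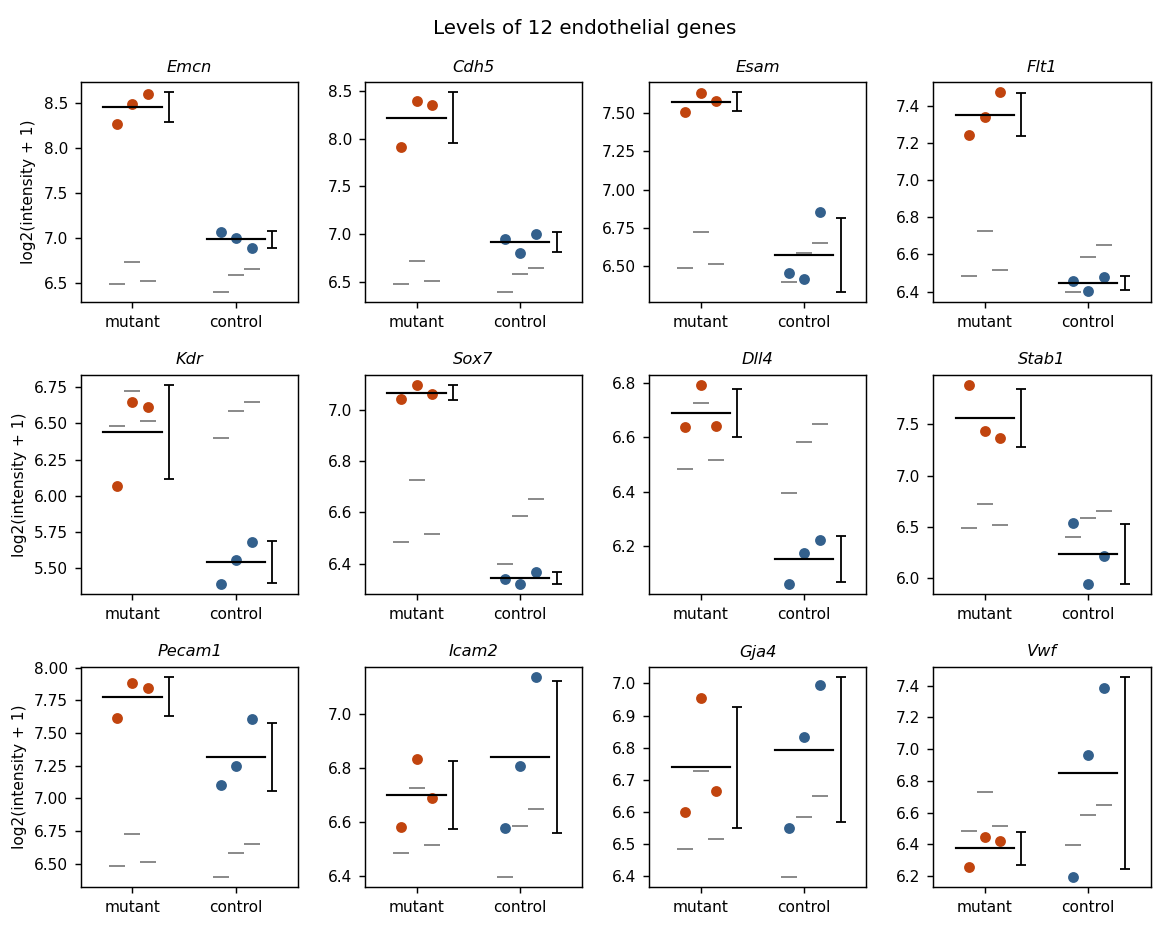
Levels of 12 endothelial genes in log2(intensity + 1), mutants left of controls; points are arrays (replicates 1 to 3 from left to right), the black line is the group mean, the bar its SD (n = 3), and the grey dashes the background of each array. The mutants lie above the controls for the first 9 genes, and the groups overlap for Icam2, Gja4 and Vwf.

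Of the 6 arterial genes and the venous receptor Ephb4, 3 rose and none fell. Dll4, the Notch ligand of arterial and tip cells, measured 6.64, 6.79 and 6.64 in mutants, against 6.06, 6.18 and 6.23 in controls, which were at background, so it was at least 1.11-fold higher. It rose by 0.54 (SE 0.09, adjusted p = 0.01), and the call held with each array left out. Efnb2, the arterial ephrin ligand, and its venous receptor Ephb4 rose by nearly the same amount, 0.52 (adjusted p = 0.03) and 0.51 (adjusted p = 0.0223). Efnb2 had 8.51, 8.69 and 8.71 in mutants and 8.32, 8.10 and 7.94 in controls, and Ephb4 had 7.62, 7.90 and 7.86 in mutants, against 7.37, 7.32 and 7.16 in controls. Both genes are also expressed by skeletal cells, and both lost the call without control replicate 2, mutant replicate 2 or mutant replicate 3, Efnb2 also without mutant replicate 1, with adjusted p up to 0.124 for Efnb2 and 0.102 for Ephb4. Without control replicates 2 and 3 the Efnb2 difference was 0.31, and with the marrow covariate it was -0.38, against -0.02 for Ephb4.

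The remaining arterial genes did not separate the groups. Nos3, the endothelial nitric oxide synthase, had 7.36, 7.09 and 7.09 in mutants and 7.15, 7.14 and 6.96 in controls (difference 0.10, interval -0.16 to 0.36). Notch4, an endothelial Notch receptor, had 7.26, 7.45 and 7.15 in mutants, against 7.25, 6.97 and 6.97 in controls (difference 0.22, interval -0.06 to 0.50). Gja4, a gap junction connexin, which megakaryocytes also express, had 6.60, 6.95 and 6.66 in mutants and 6.55, 6.83 and 7.00 in controls. Its difference was -0.05 (interval -0.39 to 0.29), and it was 0.05 without control replicate 3, 0.02 without mutant replicate 1 and 0.19 without control replicates 2 and 3. Gja5, an arterial connexin, was at background on all arrays (difference 0.19, interval -0.08 to 0.46).

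Of the genes grouped as sinusoidal (Stab1, Stab2 and Flt4) only Stab1 was above background in any array. Lyve1, which sinusoids also express, is described with the lymphatic genes. Stab1, a scavenger receptor of sinusoidal endothelium and of tissue macrophages, measured 7.88, 7.44 and 7.36 in mutants, against 6.54, 5.95 and 6.22 in controls. It rose by 1.33 (SE 0.19, adjusted p = 0.00461), 2.51-fold, although 1 of its 3 controls was above background, so that the fold depends on values at background. Stab2, a scavenger receptor related to Stab1, and Flt4, the VEGF-C receptor of sinusoidal and lymphatic endothelium, were at background on all 6 arrays, with a difference of 0.07 for Stab2 (interval -0.20 to 0.35) and of 0.03 for Flt4 (interval -0.18 to 0.24). That of Flt4 turned to -0.01 without mutant replicate 1. Of 11 macrophage markers tested, 8 rose and none fell, 9 were above background in all mutants and 7 in all controls, and their mean was 8.23, 7.91 and 7.82 in mutants, against 7.55, 7.27 and 7.28 in controls. The array with the highest macrophage mean in each group also had the highest Stab1 level, and the part of macrophages in it was not tested.

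Of the lymphatic genes, Pdpn rose, Lyve1 did not pass and Prox1 was at background. Pdpn, podoplanin, had 9.49, 9.48 and 9.43 in mutants and 8.97, 8.53 and 8.16 in controls. It rose by 0.91 (SE 0.19, adjusted p = 0.0192), and the call was lost without control replicate 2 or any mutant array (up to 0.0709). Without control replicates 2 and 3 the difference was 0.49, and with the marrow covariate it was -0.81. Lyve1, a hyaluronan receptor of lymphatic and sinusoidal endothelium and of some macrophages, had 7.85, 7.74 and 7.23 in mutants, against 7.83, 7.07 and 6.65 in controls, so the groups overlapped. Its difference of 0.42 had an interval from -0.27 to 1.11, and it turned to -0.22 without control replicates 2 and 3. Prox1, the transcription factor that defines lymphatic endothelium, had 5.83, 6.06 and 5.93 in mutants and 5.93, 5.89 and 5.86 in controls, with a difference of 0.05 that turned to -0.01 without mutant replicate 2. Of 10 fibrous tissue markers 6 rose, 10 were above background in all mutants and 8 in all controls, and their mean was 10.32, 10.35 and 10.34 in mutants, against 9.61, 9.60 and 9.22 in controls. The part of such cells in the Pdpn value was not tested. Sele, E-selectin, which cytokines induce on endothelium, had 7.45, 7.70 and 7.74 in mutants and 6.63, 7.31 and 6.69 in controls, and rose by 0.75 (adjusted p = 0.0375), a call lost without control replicate 1 or 3 or any mutant array (up to 0.136).

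The calls differed in whether they were kept with an array left out. Those fits called 512 to 1642 of all genes higher, against 1335 in the main fit. How much of a lost call came from having fewer arrays was not tested. With each of the 6 arrays left out in turn, 10 of the 22 genes stayed called, namely Cdh5, Esam, Emcn, Cd34, Ptprb, Flt1, Aplnr, Sox7, Dll4 and Stab1, with adjusted p of at most 0.049. The other 12 lost the call with at least 1 array left out. Under all 15 alternative settings without the covariate, left-out arrays included, 8 genes were called wherever they were tested: Cdh5, Esam, Emcn, Ptprb, Flt1, Sox7, Dll4 and Stab1. Of the 22 risen genes, 7 had no control above background (Kdr, Ptprb, Mmrn2, Aplnr, Sox7, Tie1 and Dll4). Their folds are given against the control background or not at all. In a further 5, Esam, Podxl, Egfl7, Flt1 and Stab1, some controls were above background and others not.

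A further list of 45 genes of endothelium, outside the set, held genes called in both directions. Of 43 tested, 13 rose, or 30.2%, and 4 fell, or 9.30%, where 7.84% of all genes were called higher and 6.82% lower, with a median difference of 0.15. S1pr1, the sphingosine-1-phosphate receptor of endothelium and lymphocytes, rose by 1.23 (adjusted p = 0.00387), Palmd, a membrane-associated protein, by 1.19 (adjusted p = 0.00457), Nostrin, which traffics endothelial nitric oxide synthase, by 1.16 (adjusted p = 0.000782; at least 1.63-fold, with all controls at background), and Sparcl1, a matrix protein of vessels, by 1.10 (adjusted p = 0.00223). The fallen genes were Lmo2, Cxcr4, Unc5b and Fli1. Lmo2, a haematopoietic and endothelial cofactor, had 6.41, 6.36 and 6.11 in mutants, against 7.33, 8.75 and 9.77 in control replicates 1, 2 and 3 (difference -2.32, adjusted p = 0.0259). All its mutants were at background, so it was at least 4.12-fold lower. Cxcr4, the CXCL12 receptor of leukocytes and tip cells, fell by 1.86 (adjusted p = 0.00461), and Fli1, an ETS factor of blood and endothelium, fell by 0.62 (adjusted p = 0.0459). Lmo2 and Fli1 lost the call without control replicate 2 or any mutant array, with adjusted p up to 0.0964 for Lmo2 and 0.135 for Fli1, and without control replicates 2 and 3 their differences were -1.04 and -0.31. For all 3 the highest control was replicate 3, as for 24 of the 25 marrow markers. The same held for 23 of the 44 measured genes of this list and for 19 of the 41 endothelial genes. The part of marrow cells in these 3 falls was not tested. Unc5b, a netrin receptor of arterial and tip cells, had 7.66, 7.72 and 7.82 in mutants, against 9.08, 8.86 and 8.61 in controls, and fell by 1.11 (adjusted p = 0.0022). Its lowest control was replicate 3, the array with the most marrow transcripts, as for 13 of the 44 measured genes of this list.

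Among 12 genes for ligands of the receptors described, 3 were called higher and none lower, with a median difference of 0.29. Pgf, placental growth factor, which binds FLT1, measured 7.52, 7.36 and 7.11 in mutants, against 5.82, 5.77 and 5.75 in controls, and rose by 1.55 (adjusted p = 0.000485). All its controls were at background, so it was at least 1.73-fold higher. Tgfb3 rose by 0.71 (adjusted p = 0.0118). Angpt2, a ligand of TEK, was called (difference 0.39, adjusted p = 0.042) but was at background on all 6 arrays, so no fold is given. Tgfb3 lost its call without mutant replicate 1 or 3 (up to 0.0611), and Angpt2 without any single array but control replicate 3 (up to 0.166). Vegfa, the main VEGF of hypertrophic cartilage, differed by 0.43 and did not pass (adjusted p = 0.054). Mural cells, which wrap vessels, were also followed. Of 10 pericyte and smooth muscle markers, 6 rose and 1 fell, 7 were above background in all mutants and 6 in all controls, and their mean was 7.92, 8.14 and 8.05 in mutants, against 7.34, 7.18 and 7.13 in controls.

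**Figure D4:**
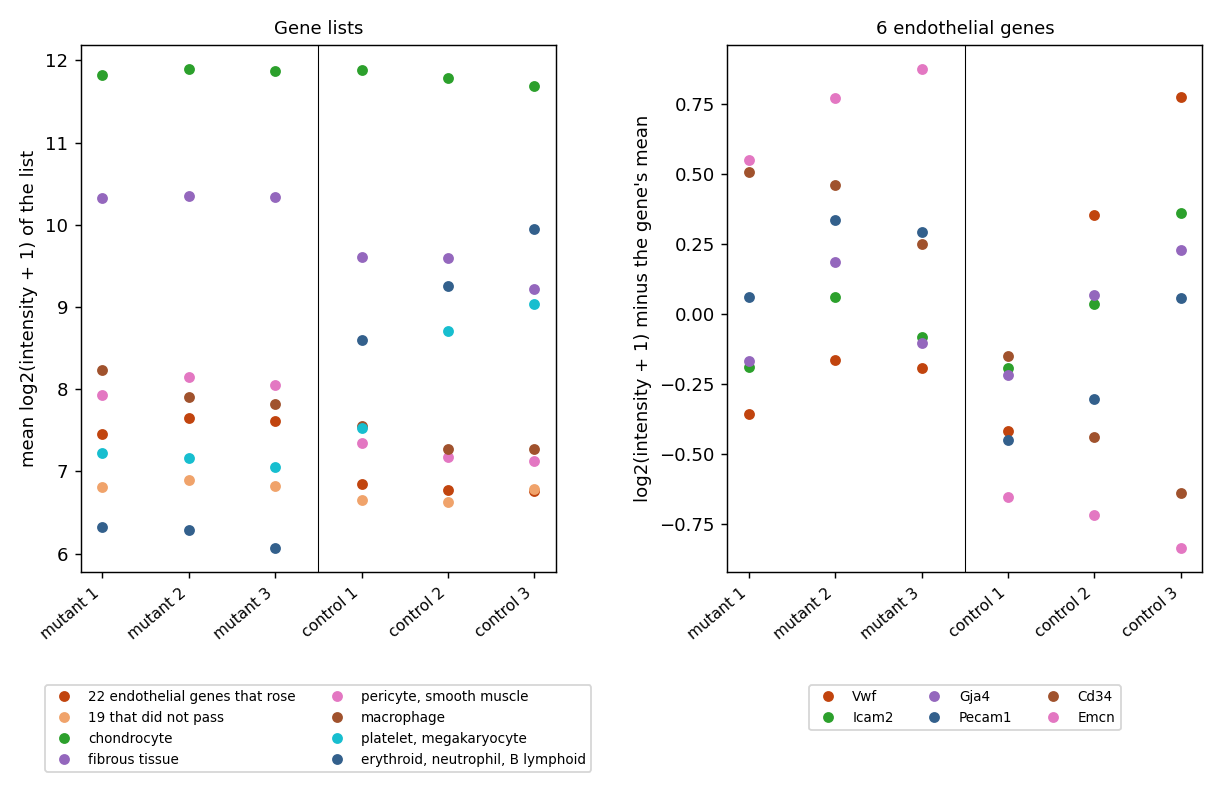
Left, the mean log2(intensity + 1) of each gene list by array; right, the level of 6 endothelial genes by array, minus the gene's mean over all arrays. The 22 risen endothelial genes, chosen by their call on these same arrays, lie between 7.45 and 7.65 in the mutants and between 6.76 and 6.85 in the controls. Vwf, Icam2, Gja4 and Pecam1 are highest of the controls in replicate 3, where Cd34 and Emcn are lowest.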

How the data were processed

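Total RNA (300 ng per preparation, per the labels' protocols) was measured on single-colour Affymetrix arrays. The only values used are the intensities in the authors' deposited table, with 35512 probe sets per array on a linear scale from 0.74 to 9001. The summary, background correction and normalisation steps behind them are not stated in the sources used here. Titles gave each array its group and replicate number, and 0 value columns were unused. Gene names come from the platform annotation, brought up to date in RefSeq (GRCm38.p6). One gene each was listed for 21789 probe sets (21698 found by gene number), several for 1621, and none for 12102.

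The intensities were turned into log2(intensity + 1). The dimmest 25% of probe sets by mean (below 5.56) were dropped, and per gene the 1-gene probe set with the highest mean was kept; each endothelial gene has a single such probe set. The groups were compared by limma 3.58.1 under R 4.3.3 (lmFit, eBayes, two-sided, Benjamini-Hochberg adjustment over 17020 genes). In simulated data built on the measured means and variances, this comparison called 26.2% of genes altered by 0.5 (log2), 76.1% of genes altered by 1, and 95.3% of genes altered by 2. The altered genes numbered 187, 201 and 212 over all runs of 17020 genes, a far smaller share than the 14.7% called in the data. The adjustment is stricter where fewer genes are altered, so these rates do not give the sensitivity for these data. A gene is at background on an array where it does not exceed the 95% point of the olfactory receptor probe sets there.

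The endothelial genes, the other lists and the alternatives were chosen with earlier results of these data known. Every endothelial gene is named, and so is the targeted gene. From the further endothelial list and from the ligands, up to 4 called genes per direction are named. Markers of other cell types are named where they were at background, and the uncalled platelet and megakaryocyte markers are named as well. Vegfa was added after its value was seen. Alternatives covered array scaling (quantile, median), the dim filter (none, or at the median), averaging of probe sets, a pseudocount of 16, an intensity trend in limma, the replicate number as a block, arrays left out, and a covariate, the mean of the 25 marrow markers.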

Additional observations from a re-analysis of the deposited data

How the results depend on the processing

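No endothelial gene that rose changed direction under the normalisations, filters, pseudocount, variance model, replicate block or left-out arrays. For all 22 every mutant array lay above every control array, so leaving arrays out could not change the sign. The filters, variance model and block leave the difference itself unchanged. So does the mean of probe sets, because each endothelial gene has a single 1-gene probe set. With the marrow covariate 17 of 22 kept their sign. The number that rose was 22 with quantile normalisation, the mean of probe sets and a pseudocount of 16, and 21 with an intensity trend. It was 18 with median centring and with no filter, and 17 with a filter at the median, which tested 28 of the genes. In the same order these fits called 1335, 1328, 1381, 1415, 1117, 1171 and 1297 of all genes higher, against 1335 in the main fit. With single arrays left out it lay between 10 and 22, the number called lower between 0 and 1, and the median difference between 0.38 and 0.54. The further endothelial list then had 7 to 15 genes higher and 2 to 8 lower, and all genes 512 to 1642 higher and 424 to 1640 lower. Without control replicates 2 and 3 the values were 11 endothelial genes higher, a median of 0.35 and 885 of all genes higher. With the marrow covariate they were 0 endothelial genes, 1 gene of the further list in each direction, and 28 of all genes higher and 10 lower. In that fit, extended to single genes and the further list after seeing the data, 5 risen genes changed sign: Cd34 (-0.11), Podxl (-0.51), Efnb2 (-0.38), Ephb4 (-0.015) and Pdpn (-0.81). So did 8 uncalled ones: Icam2 (1.05), Vwf (2.03), Gja4 (0.93), Sox18 (-0.027), Notch4 (-0.27), Nos3 (-0.23), Lyve1 (-1.79) and Prox1 (-0.10). The targeted gene Stk11 (0.40), Palmd (-0.32), Lmo2 (3.04), Cxcr4 (0.41), Fli1 (0.84) and Tgfb3 (-0.17) also changed sign. Among these genes only Lmo2 was called (adjusted p = 0.0469). The covariate separates the groups completely, so all differences from that fit are extrapolations. Under the other alternatives, signs changed only in uncalled genes. Without control replicates 2 and 3 the differences were 0.12 for Icam2, 0.18 for Vwf, 0.19 for Gja4 and -0.22 for Lyve1. With single arrays left out, Erg lay between -0.065 and 0.19, Icam2 between -0.27 and 0.0082, Gja4 between -0.18 and 0.047, Flt4 between -0.010 and 0.088, and Prox1 between -0.012 and 0.11. The causes of these shifts were not tested.

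With the replicate number as a block 15 of the 22 stayed called, and Cldn5, Efnb2, Egfl7, Eng, Ephb4, Podxl and Robo4 did not. That fit called 1061 of all genes higher, against 1335 in the main fit. Same-numbered arrays deviated from their group means with correlations across genes of 0.08, 0.21 and -0.08 for replicates 1, 2 and 3. Differently numbered arrays gave -0.18 to 0.11, so the 0.21 of replicate 2 was the highest. These values do not settle whether the numbers pair the samples, and the main fit did not pair them. Genes at background on all arrays (Tek, Clec14a, Sox17, Gja5, Stab2, Flt4 and Prox1) have no measured difference beyond that background.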
